A study of Arabidopsis thaliana with 6 samples.

Results

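Detached mature leaves were compared with whole 2-week-old seedlings of the same Arabidopsis thaliana line on Affymetrix ATH1 arrays, using all 6 of the 6 arrays of the series. The 2 leaf arrays came from leaves detached from 40-day-old plants raised on soil with 12 h of light a day, and the leaves had been incubated for 6 h. The 4 seedling arrays came from seedlings raised on MS medium plates with 16 h of light a day and treated for 3 h or 4 h. All plants were GRF9-IOE plants, in which estradiol (EST) switches on a transgenic copy of the transcription factor gene GRF9 through the XVE promoter system, so that the mock arrays carry the transgene as well. In each of the 3 sets (leaves at 6 h, seedlings at 3 h, seedlings at 4 h), 1 array was treated with 10 µM EST and 1 received 0.1% ethanol as the mock treatment. The study's methods give other figures than the sample labels for the age of the leaf donors and for the ethanol, and the values of the labels are used here. No probe set of the arrays was assigned to GRF9, so its induction could not be read from them.

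The members of the comparison are the genes for which both leaf arrays lay above, or both lay below, all 4 seedling arrays. The difference of a gene is the mean log2 signal of the 2 leaf arrays minus the mean of the 4 seedling arrays, and a positive difference means a higher signal in leaves. Tissue, plant age, detachment, growth conditions and time of treatment all changed together and cannot be told apart. In whole tissue, fewer cells of a type and less RNA per cell cannot be told apart either. The labels do not say whether arrays came from separate cultures, and the arrays also differ in treatment and time. The model behind the SE and p-values holds a term for EST, which takes out the EST difference that both tissues share. The spread that is left is also drawn toward that of the other probe sets. An SE can therefore be smaller than the gaps between the arrays of a tissue, and it is not the precision between independent plants.

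A mature Arabidopsis leaf has finished dividing and expanding and lives from its own photosynthesis, whereas a seedling holds roots, stem tissue, a shoot tip and young leaves with dividing cells. Roots and seedlings of this family store the beta-glucosidase PYK10 in rod-shaped bodies of the endoplasmic reticulum, which are linked to defence. A leaf cut from the plant is separated from its supply of water and hormones, and leaves that run short of sugar or that age break down proteins, lipids and amino acids and recycle cell contents by autophagy.

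The arrays fell into the labelled tissues. Across the genes measured the leaf arrays correlated at 0.993 with each other, the seedling arrays at 0.995 to 0.997 and leaf with seedling arrays at 0.913 to 0.929, as a description over genes that share their arrays. Between 22.8% and 24.2% of probe sets sat at the lowest value of an array, about 2.15 on the log2 scale. A signal within 0.5 of that value is called near the array minimum below, and a difference that starts there is limited by the minimum. The distance from the 3′ to the 5′ control probe sets, which grows with RNA breakdown or short cDNA, was higher on both leaf arrays for 3 of the 6 control sets. For 1 GAPDH set it was 1.79 and 1.36 on the log2 scale in leaves, against 0.78 to 1.26 in seedlings. The part of this distance in the differences below was not tested. The 4 housekeeping genes of the list fixed for this purpose all stayed under a difference of 1, between -0.42 for GAPC2, a glycolytic enzyme, and 0.38 for PEX4. They were not unchanged, since 2 had both leaf arrays above all seedling arrays and 2 had both below. GAPC2 (limma adjusted p = 0.00907) and PEX4 (limma adjusted p = 0.0224) missed only the minimum difference used for calls below.

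Among 13355 genes with a probe set of their own, 1567 (11.7%) were higher and 1507 (11.3%) lower in leaves by limma, at an adjusted p under 0.05 and a log2 difference of at least 1. By the arrays alone, 1631 genes (12.2%) had both leaf arrays above all seedling arrays with a difference of at least 1, and 1566 (11.7%) had both below. Of these, 1565 and 1506 were among the genes called by limma, while 2 of the called higher genes and 1 of the called lower genes had overlapping arrays. A difference of at least 4 was reached by 98 genes called higher and 90 called lower. Within a tissue, 288 genes differed 2-fold between the EST and mock leaf arrays and 93 to 214 between any pair of seedling arrays, against 3067 to 3473 between leaf and seedling arrays of the same treatment. Genes were also counted in 24 lists and in 23 groups. The groups were assembled after values had been seen. They include nuclear RNA polymerases, U-box ligases, ESCRT and VPS proteins, chaperones, WRKY, SWEET, calmodulin-like and tau glutathione transferase genes. Beta-glucosidases, ubiquitin-conjugating enzymes, tubulins and actins, CLE peptides, defensins and CYP71B genes are groups too. So are cold-regulated genes, methionine sulfoxide reductases, mitochondrial genes and genes of chlorophyll and haem synthesis. Counts called in lists and groups are read against the shares of all genes called, 11.7% higher and 11.3% lower. Where a count of genes with both leaf arrays above or below all seedling arrays is given for a list or group, it takes any difference, and its base is 23.6% of all genes above and 23.4% below. All these shares include 4971 genes near the array minimum on all 6 arrays, which cannot reach a difference of 1. Among the 5204 genes with a mean log2 signal of at least 6, 1058 were higher and 1079 lower, which are larger shares. Groups with few genes near the minimum are therefore set against a low base.

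The count of calls moved with the seedling arrays used. With only the 4 h seedlings as the comparison 548 genes were higher and 586 lower, and with only the 3 h seedlings no gene passed limma's adjusted p, while 1474 higher and 1342 lower genes had an unadjusted p under 0.05 with a difference of at least 1.

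**Figure D1:**
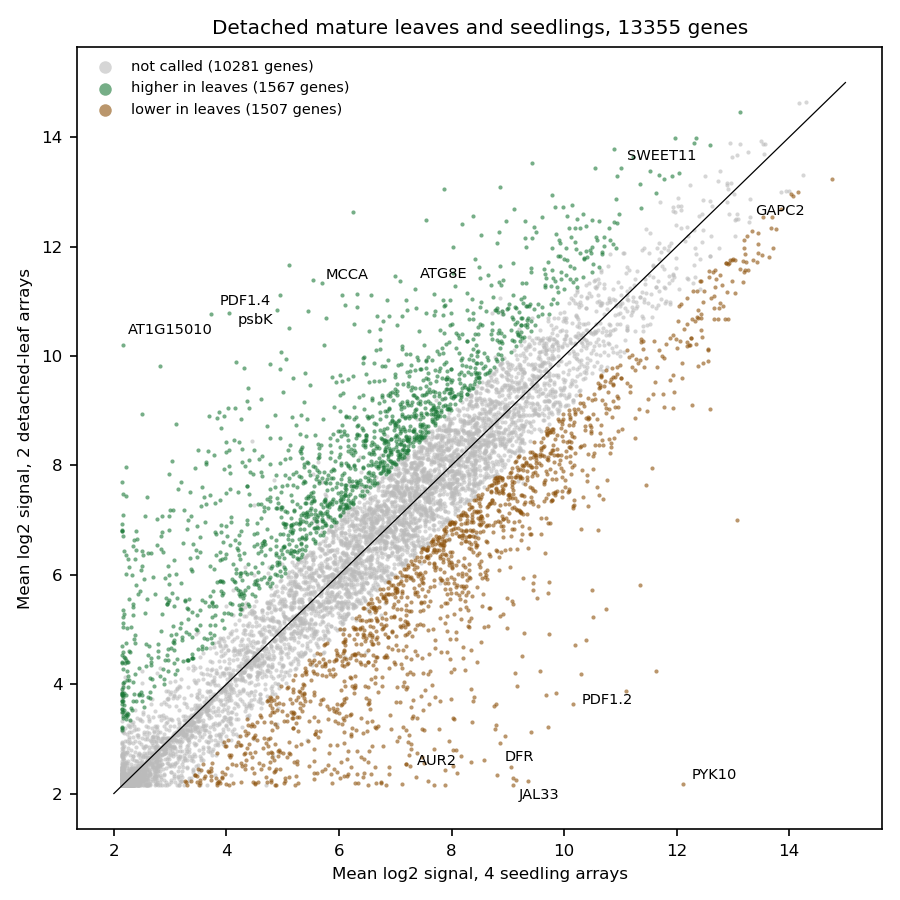
Mean log2 signal of the 2 leaf arrays against the mean of the 4 seedling arrays, 1 point for each of 13355 genes, with genes called higher in leaves in green and lower in brown. The points called higher (1567) and lower (1507) lie on either side of the diagonal, and PYK10 stands at the foot of the plot with a leaf mean of 2.17 and a seedling mean of 12.12.

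Genes of endoplasmic reticulum bodies and of the jacalin-related lectins that associate with PYK10 were mostly lower in leaves. Of the 7 measured genes of this group, which was put together after values had been seen, 6 were lower in leaves and none higher, with a median difference of -6.12 against 0.00 over all genes. Below, leaf signals are given in the order mock and EST, and seedling signals in the order mock 3 h, EST 3 h, mock 4 h and EST 4 h, all on the log2 scale. PYK10 had signals of 2.17 and 2.17 in leaves, against 12.08, 12.27, 12.07 and 12.06 in seedlings. Both leaf values were at the array minimum while all seedling values were above 12. The difference was -9.95 ± 0.07 (SE; limma adjusted p = 0.000103), the largest of all genes, and corresponds to a 987-fold higher signal in seedlings that is limited by the array minimum. NAI2, a component needed to form these bodies, had 3.18 and 3.08 in leaves, against 9.02, 9.41, 9.56 and 9.68 in seedlings, a difference of -6.29 ± 0.21 (SE; limma adjusted p = 0.000539). NAI1, the transcription factor that controls them, was lower by a smaller amount, with 3.03 and 3.04 in leaves, against 4.43, 4.43, 4.43 and 4.64 in seedlings and a difference of -1.45 ± 0.08 (SE; limma adjusted p = 0.00124). Neither gene had overlapping arrays, and the EST and mock arrays of a tissue lay close together.

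The lectins that bind into the PYK10 complex differed among themselves. JAL33 had 2.15 and 2.15 in leaves, against 9.22, 8.90, 9.17 and 9.09 in seedlings, a difference of -6.94 ± 0.09 (SE; limma adjusted p = 0.000193), again from the array minimum. JAL22 had 3.37 and 4.99 in leaves, against 10.24, 10.42, 10.17 and 10.38 in seedlings, a difference of -6.12 ± 0.37 (SE; limma adjusted p = 0.00135). JAL34 was lower as well (difference -3.80), but kept a leaf signal of 6.81 and 6.81. JAL23 did not pass the test, with 7.83 and 6.08 in leaves, against 7.26, 7.19, 7.70 and 6.87 in seedlings, so its arrays overlapped. Of the 32 genes of the root list, 4 were measured. Besides PYK10 and NAI2 these were the root-hair expansins EXPA7 and EXPA18. Both expansins lay near the array minimum on all 6 arrays, so that these defining root-hair genes were not detected in the seedlings.

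Of 22 beta-glucosidases measured, 3 were higher and 5 lower in leaves, PYK10 itself among the lower, and 12 lay near the array minimum on all arrays. These counts are not far from the shares of all genes called, and 2 were higher without the EST leaf array, the mock 3 h or the EST 3 h seedlings. BGLU28 had 3.12 and 3.30 in leaves, against 8.69, 10.16, 9.81 and 10.19 in seedlings, a difference of -6.50 ± 0.40 (SE; limma adjusted p = 0.00144). BGLU15 and BGLU44 were lower (differences -3.40 and -2.65), while BGLU16 was higher by 2.26 and BGLU33 by 2.13. In glucosinolate metabolism, BCAT4, which starts the chain elongation of methionine for these defence compounds, was lower, with 8.14 and 6.78 in leaves, against 10.91, 10.41, 10.63 and 10.53 in seedlings and a difference of -3.16 ± 0.29 (SE; limma adjusted p = 0.00327). The glucosinolate transporter gene GTR1 was higher by 1.23 (limma adjusted p = 0.00342), and GTR2 by 1.22. The GTR2 difference was 0.85 without the mock leaf array, and its adjusted p was 0.0561 without the EST 3 h and 0.06 without the mock 4 h seedlings.

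All 7 measured genes, of 21 listed, of flavonoid and anthocyanin synthesis were lower in leaves, with a median difference of -5.52. These genes make the flavonols and red pigments that screen light, and they include enzymes of the core path and of the sugar decorations. DFR, which commits the path to anthocyanins, had 2.31 and 2.20 in leaves, against 9.57, 9.02, 9.52 and 8.48 in seedlings, a difference of -6.89 ± 0.25 (SE; limma adjusted p = 0.00059). CHIL, a protein that helps chalcone synthase, had 2.86 and 2.35 in leaves, against 8.71, 8.29, 9.02 and 8.30 in seedlings, a difference of -5.97 ± 0.11 (SE; limma adjusted p = 0.000247). Both were low in leaves, DFR near the array minimum, and high in all seedlings, whichever the treatment. The glycosyltransferase genes UF3GT, UGT78D1 and UGT78D2 were lower (differences -5.93, -3.86 and -3.72), as was the list member AT4G14090 (difference -5.52). UGT78D1 and UGT78D2, which glycosylate flavonols, kept leaf signals of 5.82 and 5.93 and of 5.50 and 5.94. The acyltransferase gene AT5MAT was lower (difference -1.64) from seedling signals of only 3.63, 3.90, 4.24 and 3.65, and its call was lost without the mock leaf array (adjusted p = 0.0716). Among genes named after their values had been seen, HYH, a light-signalling factor related to HY5, was lower too, with 4.81 and 4.84 in leaves, against 7.73, 8.45, 7.80 and 7.91 in seedlings, a difference of -3.14 ± 0.20 (SE; limma adjusted p = 0.00154).

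**Figure D2:**
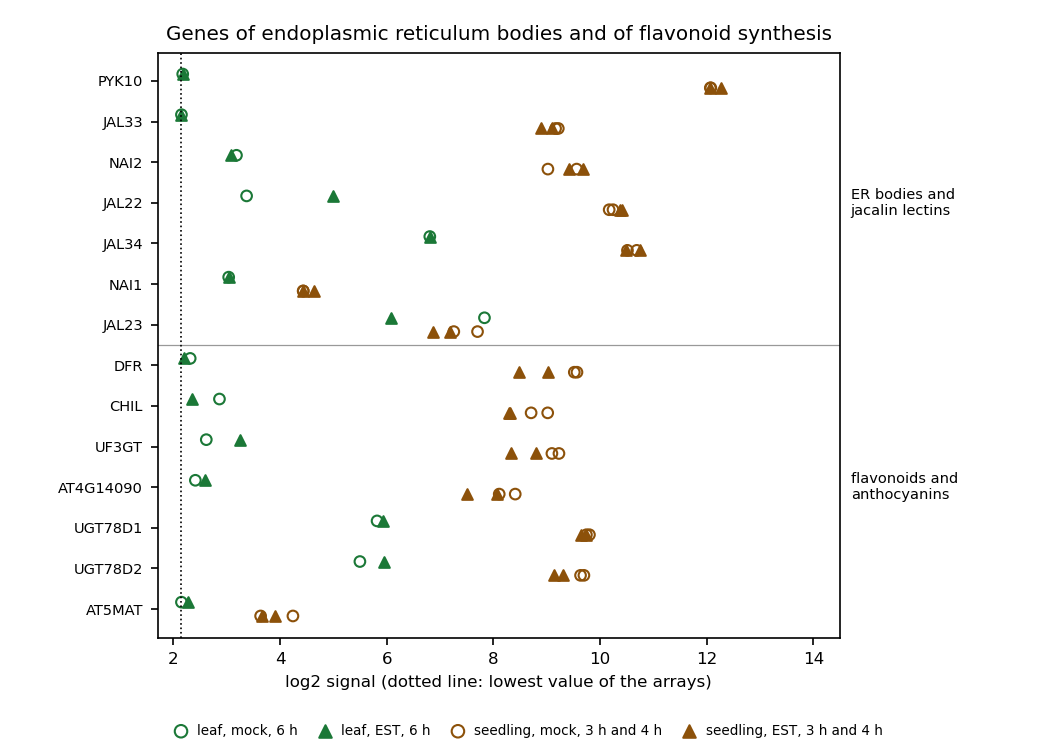
Log2 signals on each array for genes of endoplasmic reticulum bodies, jacalin-related lectins and flavonoid synthesis, the 2 leaf arrays drawn above the 4 seedling arrays of each gene. PYK10, JAL33 and DFR lie at the array minimum of about 2.15 in leaves, while UGT78D1 and JAL34 keep leaf signals near 5.9 and 6.81.

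Most of the listed genes of cell division were lower in leaves. Of 11 measured members of the list of histones and cell division, 7 were lower and none higher, with a median difference of -2.42. AUR2, an Aurora kinase of mitosis, had 2.82 and 2.82 in leaves, against 7.05, 7.43, 7.45 and 7.20 in seedlings, a difference of -4.47 ± 0.16 (SE; limma adjusted p = 0.000607). Its relative AUR1 was lower (difference -4.18). PRL, the MCM7 subunit of the replicative helicase, had 4.01 and 5.10 in leaves, against 7.40, 7.56, 7.78 and 7.68 in seedlings, a difference of -3.05 ± 0.30 (SE; limma adjusted p = 0.00398). All leaf values of these genes were below all seedling values, with AUR1 and AUR2 near the bottom of the scale in leaves.

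Histone genes did not share one size of difference. The H2B genes HTB1, HTB2 and HTB11 were lower (differences -2.91, -2.93 and -1.26). HTB4, another H2B gene, had 11.00 and 10.97 in leaves, against 11.30, 11.44, 11.47 and 11.49 in seedlings, and its difference of -0.44 stayed under the minimum of 1. HTR12, the histone H3 variant of centromeres, had 2.93 and 2.89 in leaves, against 5.83, 5.50, 4.97 and 5.0 in seedlings, a difference of -2.42 ± 0.32 (SE; limma adjusted p = 0.00855). Its call was lost without the mock leaf array (adjusted p = 0.0696) or the EST leaf array (adjusted p = 0.059). With only the 3 h seedlings as the comparison the median of the list was -2.76, and with only the 4 h seedlings -2.08.

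A wider group of 27 genes of DNA replication and mitosis, chosen after values had been seen, had 17 lower and none higher in leaves. The median difference was -1.36. By any difference 24 of the 27 had both leaf arrays below all seedling arrays, against 23.4% of all genes. With 1 seedling array left out, 14 to 16 were lower. The median was -1.42 without the mock leaf array and -1.50 without the EST leaf array. The mitotic chromatin proteins 3xHMG-box2 and 3xHMG-box1 led the group. 3xHMG-box2 had 3.47 and 4.48 in leaves, against 9.07, 9.26, 9.28 and 9.04 in seedlings, a difference of -5.19 ± 0.28 (SE; limma adjusted p = 0.00112). TOPII, the DNA topoisomerase that untangles chromosomes, had 2.30 and 2.77 in leaves, against 7.0, 7.19, 7.51 and 7.04 in seedlings, a difference of -4.65 ± 0.24 (SE; limma adjusted p = 0.00103). KINESIN-12B, a motor of the cytokinetic phragmoplast, was lower (difference -3.46), and so was BUB3.1, of the spindle checkpoint (difference -3.26). Among the polymerase subunits POLD3 and POLA3 were lower (differences -2.13 and -1.91), and so was the histone chaperone gene ASF1B (difference -2.12). The ubiquitin-conjugating enzyme gene UBC20, linked to cyclin breakdown, had 4.13 and 4.69 in leaves, against 8.54, 8.42, 8.46 and 8.38 in seedlings, a difference of -4.04 ± 0.18 (SE; limma adjusted p = 0.000803). Of 12 ubiquitin-conjugating enzyme genes, 4 were higher and 2 lower in leaves, with UBC16 higher by 2.30 and UBC28 by 1.86.

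**Figure D3:**
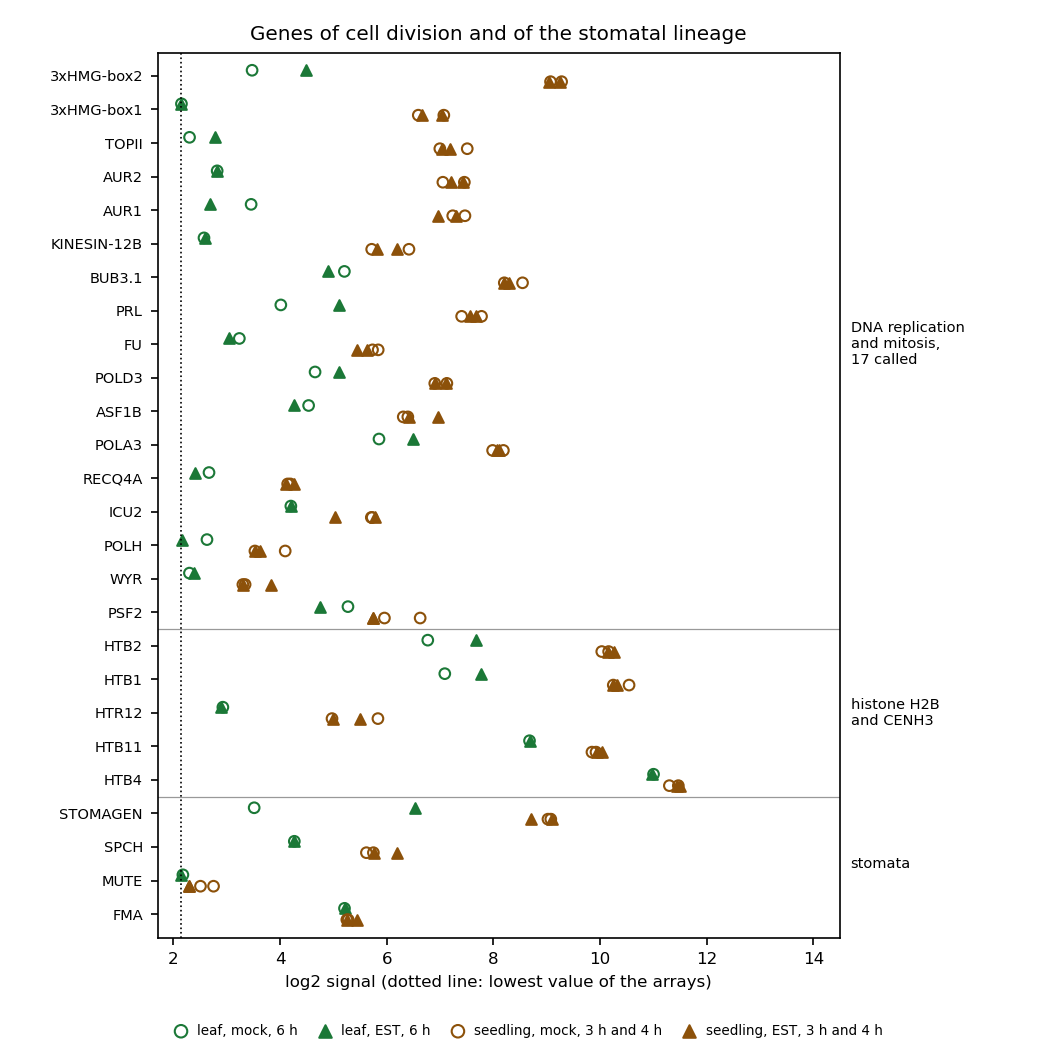
Log2 signals on each array for genes of cell division, the 2 leaf arrays drawn above the 4 seedling arrays of each gene. Each of the 17 called genes of DNA replication and mitosis has both leaf arrays below all 4 seedling arrays, and 3xHMG-box1 is at the array minimum in leaves.

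Of 12 subunits of the nuclear RNA polymerases, a group chosen after values had been seen, 5 were lower and none higher. The median difference of the 12 was -0.95. By any difference 11 had both leaf arrays below all seedling arrays, against 23.4% of all genes. NRPA1, the largest subunit of RNA polymerase I, which transcribes ribosomal RNA, had 6.13 and 5.69 in leaves, against 7.82, 7.61, 8.12 and 7.73 in seedlings, a difference of -1.91 ± 0.11 (SE; limma adjusted p = 0.00129). The polymerase I gene NRPA2 and the polymerase III gene NRPC2 were lower (differences -1.76 and -1.74). Of ribosome assembly factors named after their values had been seen, YAO had 6.23 and 5.66 in leaves, against 8.49, 8.33, 8.72 and 8.64 in seedlings, a difference of -2.60 ± 0.17 (SE; limma adjusted p = 0.00161). RRP41, a subunit of the RNA-trimming exosome, was lower (difference -1.62), as was IMP4 (difference -1.34).

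Tissue-forming genes gave a mixed picture. SPCH, the factor that starts the stomatal lineage, had 4.27 and 4.27 in leaves, against 5.62, 6.19, 5.75 and 5.75 in seedlings, a difference of -1.56 ± 0.18 (SE; limma adjusted p = 0.00592). STOMAGEN, a peptide from the mesophyll that promotes stomata, had 3.51 and 6.53 in leaves, against 9.02, 8.71, 9.08 and 9.10 in seedlings, a difference of -3.96 ± 0.82 (SE; limma adjusted p = 0.0283). The leaf arrays differed widely from each other there, the difference was -2.37 without the mock leaf array, and leaving out any 1 of the 4 seedling arrays ended the call (adjusted p = 0.0573 to 0.0868). MUTE and FMA, which act later in the lineage, did not pass the test, and MUTE was near the array minimum in leaves. By any difference all 4 measured genes of the stomata and trichome list had both leaf arrays below all seedling arrays, against 23.4% of all genes. Their differences ran from -3.96 to -0.09. CLV3, which marks stem cells of the shoot tip, was at the array minimum on all 6 arrays, so the shoot tip of seedlings could not be followed by it. The peptide genes CLE41 and CLE44, whose products keep vascular stem cells dividing, were lower (differences -2.35 and -2.19), and CLE26 was higher, with 5.70 and 4.77 in leaves, against 2.16, 2.16, 2.15 and 2.16 in seedlings.

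Of 27 expansin and XTH genes, whose products loosen or rebuild growing cell walls, 6 were lower and 1 was higher, and 20 were not called. Near the array minimum on all 6 arrays lay 12 of the 27, where no difference could be measured. EXPA15 had 3.94 and 3.95 in leaves, against 6.94, 6.94, 7.24 and 6.97 in seedlings, a difference of -3.08 ± 0.12 (SE; limma adjusted p = 0.00069). XTH16 had 6.58 and 6.92 in leaves, against 9.34, 9.41, 9.41 and 9.44 in seedlings, a difference of -2.65 ± 0.08 (SE; limma adjusted p = 0.000487). EXPB3 and XTH19 were lower (differences -3.03 and -2.84), and EXPA8 was higher by 1.61. Among the cytoskeletal genes, the tubulin gene TUB1 had 3.33 and 3.74 in leaves, against 7.21, 7.64, 7.36 and 7.76 in seedlings, a difference of -3.96 ± 0.08 (SE; limma adjusted p = 0.000307). ACT11, an actin gene, was lower (difference -2.69), while the tubulin gene TUA1 was higher by 2.10.

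None of 8 measured nuclear genes of the photosystems was called, and their differences ran between -1.09 for LHCB4.3 and 0.66 for LHCB4.2. LHCB4.2 (limma adjusted p = 0.00228) and PSBW (0.39, limma adjusted p = 0.00919) passed the p threshold and missed only the minimum difference of 1. PSAE-1, a subunit of photosystem I, had 13.69 and 13.68 in leaves, against 13.57, 13.51, 13.52 and 13.61 in seedlings. In the chlorophyll and haem path, of 11 genes 4 were lower and 1 was higher. LIL3:1, a light-harvesting-like protein needed to make chlorophyll, had 10.16 and 10.45 in leaves, against 12.00, 12.06, 11.92 and 12.01 in seedlings, a difference of -1.69 ± 0.07 (SE; limma adjusted p = 0.000708). CHLI2, a subunit of magnesium chelatase, was lower (difference -1.99). HEMA2, a glutamyl-tRNA reductase of the entry step, was higher by 1.61, a call that was lost without the mock leaf array (adjusted p = 0.0623). In photorespiration HPR, the peroxisomal hydroxypyruvate reductase, had 12.01 and 12.23 in leaves, against 10.82, 10.60, 10.95 and 10.89 in seedlings, a difference of 1.31 ± 0.14 (SE; limma adjusted p = 0.00493). It was 1 of 2 genes called higher among 5 of carbon fixation and photorespiration. The call of the other, AT1G80380 (difference 1.05), was lost without the mock leaf array (adjusted p = 0.0894), without the EST leaf array (adjusted p = 0.0607), and without the mock 3 h or EST 3 h seedlings, where its differences of 0.99 and 0.97 lay under 1.

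Of 69 measured transcripts of the plastid genome, 17 were higher and 4 lower in leaves. The share higher is not far from the 1058 of 5204 genes with a mean log2 signal of at least 6. By any difference 35 had both leaf arrays above all seedling arrays, against 23.6% of all genes. The median difference was 0.61, with 0.30 without the mock leaf array and 0.92 without the EST leaf array. The calls moved too, to 11 higher without the mock leaf array or without the mock 3 h, mock 4 h or EST 4 h seedlings, and to 2 lower without any 1 array other than the mock 4 h seedlings. psbK, a small subunit of photosystem II, had 10.73 and 10.84 in leaves, against 4.20, 5.02, 3.27 and 3.71 in seedlings, a difference of 6.74 ± 0.52 (SE; limma adjusted p = 0.00226). psbI, its companion, had 10.74 and 11.04 in leaves, against 6.21, 6.57, 6.34 and 6.14 in seedlings, a difference of 4.58 ± 0.15 (SE; limma adjusted p = 0.000541). For this pair the mock and EST leaf arrays lay close together. For atpA, of the ATP synthase, the mock leaf array was well above the EST leaf array, with 11.36 and 10.05 in leaves, against 6.40, 5.80, 6.04 and 4.85 in seedlings and a difference of 4.93 ± 0.34 (SE; limma adjusted p = 0.00176). psbA, the D1 protein, had 11.46 and 9.99 in leaves, against 6.99, 6.90, 6.64 and 6.18 in seedlings, a difference of 4.05 ± 0.40 (SE; limma adjusted p = 0.00393). rbcL, the large subunit of Rubisco, did not pass the test, with 7.89 and 7.70 in leaves, against 7.81, 7.70, 8.72 and 8.55 in seedlings. The ribosomal protein gene rpl22 was lower (difference -1.61). Of 16 mitochondrial genes 7 were higher and 1 was lower, but 4 were higher without the mock leaf array or without the mock 3 h or mock 4 h seedlings, and none was lower without the EST leaf array or without the EST 3 h, mock 4 h or EST 4 h seedlings. On all 6 arrays 6 of the 16 mitochondrial genes lay near the array minimum. cox1, of cytochrome oxidase, was higher by 2.39 and nad4 by 2.01. Most organelle transcripts carry short or no poly(A) tails, and the 3′ to 5′ distances given above were higher on the leaf arrays. Their part in these values was not tested.

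Of 5 genes of starch metabolism chosen after values had been seen, 4 were lower, with a median difference of -1.98. APL3, a subunit of the starch-building enzyme ADP-glucose pyrophosphorylase, had 7.52 and 7.16 in leaves, against 9.71, 9.85, 9.96 and 9.55 in seedlings, a difference of -2.43 ± 0.14 (SE; limma adjusted p = 0.00118). Its paralogue APL4 and the branching enzyme gene SBE2.2 were lower (differences -2.81 and -1.98). DPE1, of starch breakdown, was lower (difference -1.04), with -0.63 without the mock leaf array, and leaving out the mock 3 h, mock 4 h or EST 4 h seedlings also ended its call (adjusted p = 0.114 to 0.123). AMY1, an amylase gene, did not pass the test.

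Most genes linked to sugar shortage and to the breakdown of amino acids that were measured were higher in leaves. All 3 measured genes of the sugar starvation list, which names 17, were called higher. MCCA, a subunit of the enzyme that degrades leucine, had 11.20 and 11.02 in leaves, against 5.84, 5.76, 6.15 and 6.49 in seedlings, a difference of 5.05 ± 0.26 (SE; limma adjusted p = 0.00104). AKINBETA1, a subunit of the energy-sensing SnRK1 kinase, had 11.00 and 11.25 in leaves, against 5.97, 6.20, 6.26 and 6.89 in seedlings, a difference of 4.80 ± 0.24 (SE; limma adjusted p = 0.000998). AT2G30600, the third member, was higher by 1.92. Of 10 genes of amino acid breakdown, a group chosen after values had been seen that holds MCCA as well, 8 were higher. The median difference was 1.87, and by any difference all 10 had both leaf arrays above all seedling arrays, against 23.6% of all genes. With 1 seedling array left out, 6 to 9 were higher. The median was 1.76 without the mock leaf array and 2.12 without the EST leaf array. IVD, of leucine breakdown, had 9.86 and 9.47 in leaves, against 6.34, 6.46, 6.59 and 6.55 in seedlings, a difference of 3.18 ± 0.14 (SE; limma adjusted p = 0.000816). ETFQO and ETFALPHA, which pass electrons from these reactions to respiration, were higher by 2.65 and 1.50. MCCB, the partner subunit of MCCA, had a difference of 0.95, just under the minimum of 1, and ETFBETA of 0.70.

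The lysine-degrading enzyme gene AT4G33150 (LKR/SDH) was higher by 2.01, with 1.51 without the mock leaf array (adjusted p = 0.131), and leaving out the mock 3 h, EST 3 h or mock 4 h seedlings also ended its call (adjusted p = 0.0698 to 0.0715). Further enzymes were named after their values had been seen. ALN, allantoinase of purine breakdown, had 6.63 and 6.16 in leaves, against 2.94, 2.80, 2.44 and 2.48 in seedlings, a difference of 3.73 ± 0.22 (SE; limma adjusted p = 0.0013). PPDK, pyruvate orthophosphate dikinase, had 12.49 and 12.06 in leaves, against 8.57, 9.00, 8.61 and 9.19 in seedlings, a difference of 3.43 ± 0.25 (SE; limma adjusted p = 0.00198). SDP1, a lipase of stored oil, was higher by 2.58, and FDH, formate dehydrogenase, by 2.90.

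Most of the autophagy genes measured were higher in leaves. Of 11, in a group chosen after values had been seen, 8 were higher and none lower, 10 had both leaf arrays above all seedling arrays by any difference, against 23.6% of all genes, and the median difference was 1.48. The ATG8 proteins coat the forming autophagosome, and 7 of the 9 genes for them that were measured were called. ATG8E had 11.39 and 11.06 in leaves, against 7.33, 7.10, 7.35 and 7.61 in seedlings, a difference of 3.88 ± 0.19 (SE; limma adjusted p = 0.000907). ATG8H had 7.46 and 7.84 in leaves, against 4.50, 5.12, 5.10 and 5.59 in seedlings, a difference of 2.57 ± 0.25 (SE; limma adjusted p = 0.00395). APG8A was higher by 2.19 and ATG8F by 1.94, while ATG8C and ATG8D were higher by 1.29 and 1.34. AT5G66930, the kinase-complex subunit ATG101, was higher by 1.48. ATG3, ATG8B and ATG8G did not pass the test, with differences of 0.57, 0.56 and 0.07.

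**Figure D4:**
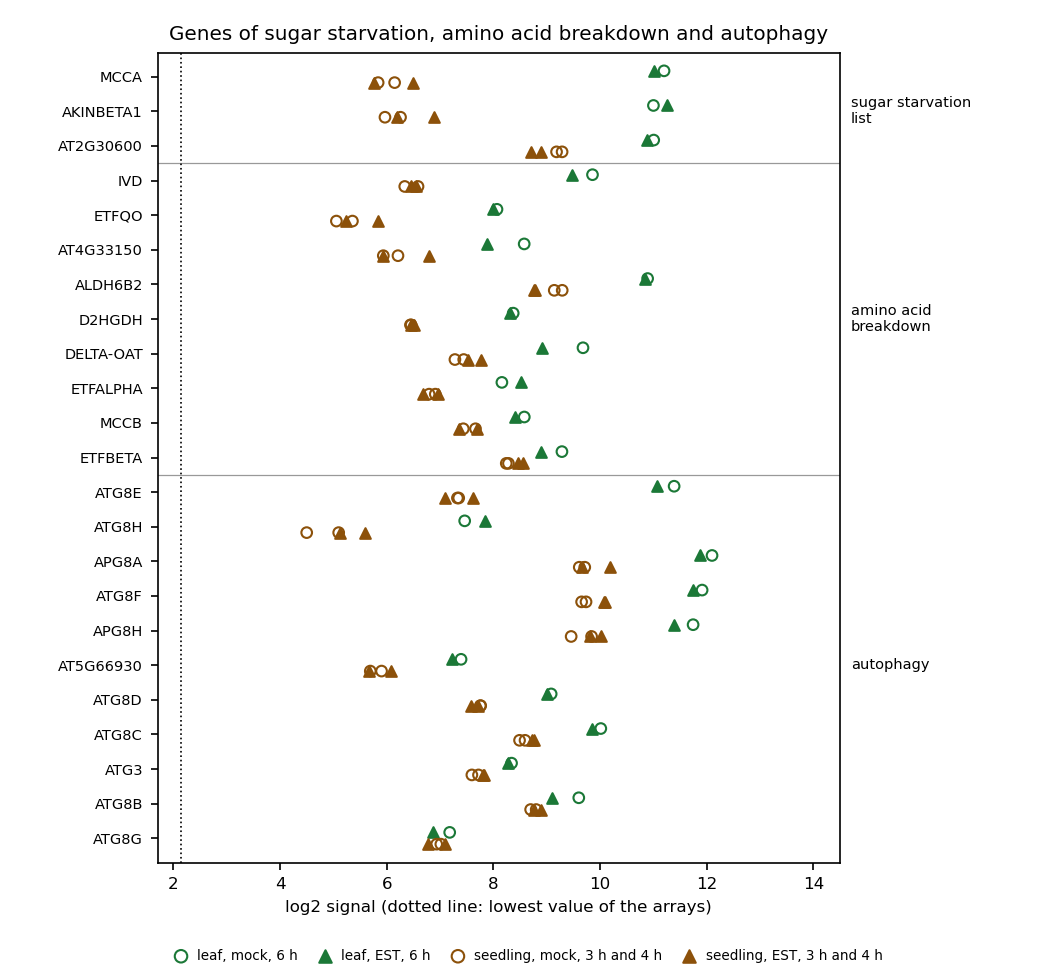
Log2 signals on each array for genes of sugar starvation, amino acid breakdown and autophagy, the 2 leaf arrays drawn above the 4 seedling arrays of each gene. All genes shown but ATG8G have both leaf arrays above all 4 seedling arrays, with MCCA apart by 5.05 and ATG8E by 3.88.

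Genes of protein processing and of sorting to the vacuole included paralogues that moved in opposite directions. GAMMA-VPE, a vacuolar processing protease of vegetative tissue, had 12.19 and 12.23 in leaves, against 8.38, 8.44, 8.41 and 8.83 in seedlings, a difference of 3.69 ± 0.14 (SE; limma adjusted p = 0.000622). BETA-VPE, a seed form of this protease, had 2.86 and 2.16 in leaves, against 7.15, 7.16, 7.65 and 7.10 in seedlings, a difference of -4.76 ± 0.21 (SE; limma adjusted p = 0.0008). Both were named after their values had been seen, and neither had overlapping arrays. Of 13 genes of the ESCRT sorting machinery and VPS proteins 5 were higher and 1 was lower. VPS60.1 was higher by 2.31 and VPS46.2 by 1.41. VPS2.2 was the exception, with 2.59 and 2.74 in leaves, against 7.20, 7.41, 7.56 and 7.77 in seedlings, a difference of -4.82 ± 0.17 (SE; limma adjusted p = 0.000602).

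Of 9 plant U-box ubiquitin ligase genes, which tag proteins for destruction, 5 were higher and none lower, with 3 higher without the mock leaf array. PUB22, a brake on immune and drought responses, had 8.40 and 8.10 in leaves, against 3.68, 4.64, 3.39 and 4.25 in seedlings, a difference of 4.26 ± 0.36 (SE; limma adjusted p = 0.0027). PUB24, a relative with the same role in immunity, had 7.12 and 7.33 in leaves, against 5.01, 5.01, 4.75 and 4.76 in seedlings, a difference of 2.34 ± 0.15 (SE; limma adjusted p = 0.00145). PUB23 was higher by 2.79, with 1.82 without the mock leaf array, and leaving out the mock 3 h, EST 3 h or mock 4 h seedlings ended its call (adjusted p = 0.0573 to 0.0691).

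Leaf-ageing genes did not move as a set, and 4 of the 25 listed were measured. WRKY53, a factor of early leaf ageing, had 9.65 and 9.66 in leaves, against 5.43, 6.41, 5.80 and 6.46 in seedlings, a difference of 3.63 ± 0.24 (SE; limma adjusted p = 0.00166). SAG101, a lipase-like protein of ageing and immunity, was higher by 1.81. SAG29, a sugar transporter that marks ageing leaves and stress, had 2.83 and 2.15 in leaves, against 6.39, 7.38, 6.49 and 6.33 in seedlings, a difference of -4.16 ± 0.44 (SE; limma adjusted p = 0.00485) in the opposite direction. WRKY6 did not pass the test and its arrays overlapped, with 7.43 and 7.71 in leaves, against 6.60, 7.71, 6.64 and 7.20 in seedlings. Of 7 WRKY factors measured 3 were higher and none lower. WRKY22, of immune and dark-induced ageing responses, was higher by 3.24, but its adjusted p was 0.0689 without the mock leaf array, and WRKY47 was higher by 2.02. EIN3, the master factor of ethylene responses, was named after its value had been seen and had 10.12 and 10.07 in leaves, against 8.24, 8.48, 8.52 and 8.67 in seedlings, a difference of 1.62 ± 0.13 (SE; limma adjusted p = 0.00227).

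Of 10 measured defensins, small antimicrobial proteins, 1 was higher and 2 were lower, 7 were not called and 4 lay near the array minimum on all arrays, so the counts are close to the shares of all genes called. PDF1.4 had 10.97 and 10.58 in leaves, against 4.07, 3.39, 3.39 and 4.07 in seedlings, a difference of 7.05 ± 0.32 (SE; limma adjusted p = 0.000852). PDF1.2, a marker of jasmonate and ethylene defence, had 3.11 and 4.18 in leaves, against 9.75, 10.55, 9.72 and 10.61 in seedlings, a difference of -6.52 ± 0.06 (SE; limma adjusted p = 0.000137). In both tissues the EST arrays lay above the mock arrays for PDF1.2, and this shared difference is not part of its SE of 0.06. PDF1.2b had 5.13 and 6.48 in leaves, against 10.97, 11.37, 11.22 and 11.81 in seedlings, a difference of -5.54 ± 0.27 (SE; limma adjusted p = 0.000935). PDF1.2 and PDF1.2b are close copies, and signal between their probe sets may not be fully separate. Thaumatin-like genes named after their values had been seen were lower too, ATLP-1 (difference -4.74) and OSM34 (difference -3.95), with seedling signals of OSM34 spread over 5.55, 6.24, 5.84 and 8.45. The OSM34 call was lost without any 1 array other than the EST 4 h seedlings (adjusted p = 0.0523 to 0.174).

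Stress-related groups held genes in both directions. Of 5 cold-regulated genes 3 were higher and 2 lower. COR15B, of the paralogue pair COR15A and COR15B that protects chloroplast membranes, had 5.09 and 3.47 in leaves, against 7.82, 8.03, 7.99 and 8.37 in seedlings, a difference of -3.77 ± 0.51 (SE; limma adjusted p = 0.00878). COR15A was lower (difference -2.11), with -1.35 without the mock leaf array, and leaving out any 1 seedling array ended its call (adjusted p = 0.0585 to 0.0784). The dehydrins LTI30 and COR47 were higher by 2.96 and 2.21, and both calls were lost without the mock leaf array (adjusted p = 0.0952 for LTI30 and 0.0856 for COR47) and without the EST leaf array (adjusted p = 0.0507 for LTI30 and 0.0561 for COR47). With the mock leaf array left out, or the EST leaf array, none of the 5 was called higher. COR27, a regulator of the clock and of freezing tolerance, was higher by 3.60. Its call was lost without the mock leaf array, the EST leaf array or the mock 3 h seedlings (adjusted p = 0.0501 to 0.102).

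Of 11 chaperone genes measured, 5 were higher and 3 lower, with 3 higher when the EST leaf array or the mock 3 h or mock 4 h seedlings were left out. Hsp70-2, a heat-shock protein, had 11.57 and 11.99 in leaves, against 8.44, 8.15, 8.69 and 8.42 in seedlings, a difference of 3.35 ± 0.22 (SE; limma adjusted p = 0.00155). The co-chaperone Hop3 was higher by 3.72 and Fes1C by 3.09. The chloroplast chaperonin gene Cpn60beta3 had 6.74 and 6.04 in leaves, against 9.56, 9.51, 10.01 and 9.58 in seedlings, a difference of -3.28 ± 0.19 (SE; limma adjusted p = 0.00122). Its paralogue Cpn60beta2 was lower (difference -2.10). Cpn60beta4 was lower too (difference -2.0), with -1.28 without the mock leaf array, and its call was also lost without the mock 3 h, mock 4 h or EST 4 h seedlings (adjusted p = 0.0779 to 0.086). CCS, which loads copper into superoxide dismutase and was named after its value had been seen, had 10.65 and 11.20 in leaves, against 6.32, 5.25, 6.53 and 6.34 in seedlings, a difference of 4.82 ± 0.46 (SE; limma adjusted p = 0.00372). Of 5 methionine sulfoxide reductase genes, whose products repair oxidised proteins, 3 were lower, with MSRB6 at -2.79 and MSRB5 at -2.76. Without the mock leaf array 1 of the 3 calls was left: MSRB9 (-1.93) lost its call there and without the EST leaf array (adjusted p = 0.0537 and 0.0876). The MSRB6 difference was -1.80 without the mock leaf array, and leaving out the mock 3 h, EST 3 h or mock 4 h seedlings also ended its call (adjusted p = 0.0687 to 0.0883).

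The vacuolar sugar transporter gene TMT1 had 10.44 and 10.69 in leaves, against 7.89, 7.81, 8.10 and 8.10 in seedlings, a difference of 2.59 ± 0.14 (SE; limma adjusted p = 0.00104). Its paralogue TMT2 had 5.12 and 5.34 in leaves, against 7.11, 6.72, 7.25 and 6.83 in seedlings, a difference of -1.75 ± 0.18 (SE; limma adjusted p = 0.00435). Of 16 SWEET sugar transporters 2 were higher and 2 lower, with SAG29, described above, among the lower. These counts are close to the shares of all genes called, and 7 of the 16 lay near the array minimum on all 6 arrays. The call of SWEET10 (2.04) was lost without the mock leaf array, the EST leaf array, the EST 3 h or the EST 4 h seedlings (adjusted p = 0.0639 to 0.174), which left 1 higher. SWEET11, which exports sucrose for phloem loading, had 13.43 and 13.45 in leaves, against 11.27, 10.98, 10.90 and 10.90 in seedlings, a difference of 2.43 ± 0.13 (SE; limma adjusted p = 0.00111). SWEET17, a fructose carrier of the vacuole, had 6.25 and 5.73 in leaves, against 8.66, 8.52, 8.52 and 8.74 in seedlings, a difference of -2.62 ± 0.17 (SE; limma adjusted p = 0.00157). NRT2.5, a nitrate transporter of nitrogen-starved plants, had 6.56 and 6.03 in leaves, against 2.29, 2.24, 2.29 and 2.21 in seedlings, a difference of 4.04 ± 0.12 (SE; limma adjusted p = 0.000469) that starts near the array minimum. TMT1, TMT2 and NRT2.5 were named after their values had been seen.

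Of 8 calmodulin-like genes 3 were higher and 1 was lower. The lower call, CML23, was lost without the EST leaf array or without the EST 3 h, mock 4 h or EST 4 h seedlings (adjusted p = 0.0819 to 0.117), and the higher call of CML37 (1.44) without any 1 seedling array (adjusted p = 0.0738 to 0.103) or the EST leaf array, where its difference was 0.81. CML30 had 10.11 and 9.77 in leaves, against 5.36, 4.96, 4.96 and 4.96 in seedlings, a difference of 4.88 ± 0.14 (SE; limma adjusted p = 0.000451). CML41, which acts at plasmodesmata in immunity, had 11.67 and 11.08 in leaves, against 6.94, 7.24, 7.44 and 6.72 in seedlings, a difference of 4.29 ± 0.25 (SE; limma adjusted p = 0.00126). Of 11 tau glutathione transferases 1 was higher and 3 were lower, but leaving out any 1 array other than the mock 3 h seedlings left 1 lower, and none was higher without the EST leaf array or the EST 3 h seedlings. GSTU20 kept its call each time, with 9.34 and 8.71 in leaves, against 12.80, 12.49, 12.70 and 12.42 in seedlings, a difference of -3.58 ± 0.10 (SE; limma adjusted p = 0.00044). Of 19 CYP71B cytochrome P450 genes 4 were higher and 1 was lower, from CYP71B24 at 3.54 to CYP71B26 at -2.51. Near the array minimum on all 6 arrays lay 7 of the 19. Measured genes were also sorted by the letters before the number in their symbols, and genes sorted together need not be related. Across 59 such sets of at least 4 genes, 20 had called members in both directions, 9 only higher, 16 only lower and 14 none.

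Smaller lists gave few calls. None of the 4 auxin-response genes, of the 2 clock genes or of the 2 genes of flowering and phase change was called. Near the array minimum on all 6 arrays lay 2 of the auxin genes and 1 of the flowering genes. By any difference 3 of the 4 auxin genes had both leaf arrays above all seedling arrays, against 23.6% of all genes. At least 1 of these lay near the array minimum on all 6 arrays, so the count cannot show a shared rise. The largest difference of the 4 was 1.32. Of 5 low-oxygen genes 1 was lower, AT4G10270, with 2.33 and 2.33 in leaves, against 5.70, 5.92, 6.68 and 6.04 in seedlings. Another 2 of the 5 lay near the array minimum on all 6 arrays. The 1 salicylic acid gene measured, AT5G52810, was higher by 1.71, and its call was lost without the mock leaf array (adjusted p = 0.0757) or the EST leaf array (adjusted p = 0.058). GUT2, the 1 gene measured of the secondary wall, did not pass the test.

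The largest differences also included genes for which no symbol was at hand. The largest rise was that of AT1G15010, with 9.80 and 10.61 in leaves, against 2.15, 2.15, 2.15 and 2.16 in seedlings, a difference of 8.05 ± 0.22 (SE; limma adjusted p = 0.000428). All 4 seedling arrays were near the array minimum. AT3G48640, with a difference of 6.44, also started near the minimum, with 8.93 and 8.94 in leaves, against 2.55, 2.55, 2.48 and 2.39 in seedlings. These were the 2 genes with signals of at least 8 in both leaf arrays and near the minimum in all seedlings. In the other direction there were 8 such genes, PYK10, JAL33, DFR, AT4G29030, AT5G45670, AT3G44450, AT3G20370 and AT2G04050. AT1G73600 had the second largest loss, with 4.37 and 4.10 in leaves, against 11.75, 11.61, 11.71 and 11.45 in seedlings, a difference of -7.40 ± 0.06 (SE; limma adjusted p = 0.000111). Others called higher with no symbol were AT2G32160 (7.0), AT3G15630 (6.53), AT3G15450 (6.38), AT2G20670 (6.16), AT5G18600 (5.94), AT1G10340 (5.84) and AT1G02360 (5.75). AT5G48430 was higher by 5.72 and lost its call without the mock leaf array (adjusted p = 0.0562), and AT4G23680 was lower (difference -7.21).

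**Figure D5:**
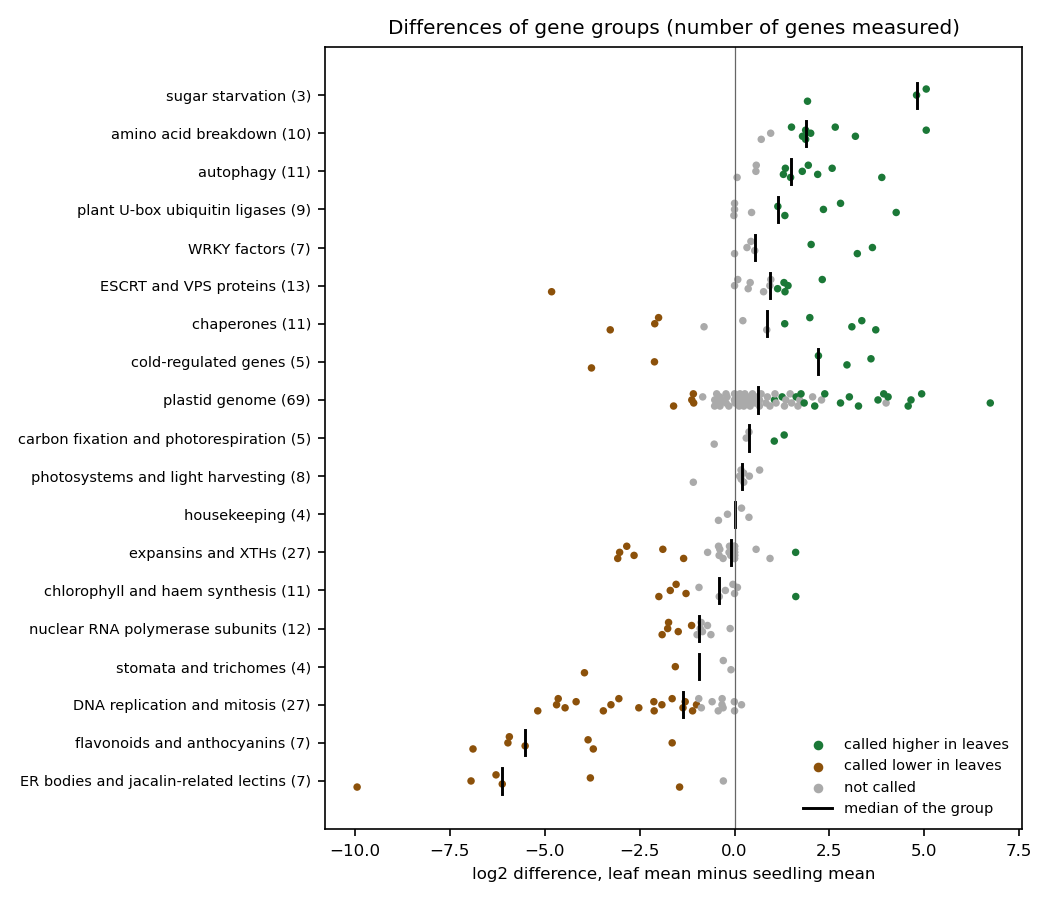
Log2 differences, leaves minus seedlings, of every measured gene in the main groups, 1 point a gene with the group median as a bar. The flavonoid group (median -5.52) and the endoplasmic reticulum body group (median -6.12) lie lowest, and the sugar starvation (median 4.80) and amino acid breakdown (median 1.87) groups lie above 0.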

How the data were processed

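RNA from the 6 samples was hybridised to Affymetrix ATH1 arrays, 1 array a sample. The authors deposited log2 signals normalised by GCRMA, per the labels, which models background from probe sequence and sets many low signals to a common lowest value; its version is not given in the sources used here, and how it set the arrays on 1 scale cannot be rerun from these values. No raw intensities were used here. Of 22810 probe sets, 64 controls were left out and 22746 were tested. A platform table gave 13513 probe sets 1 gene, 503 several and 8730 none here; 13436 matched the TAIR10.1 gene table and 77 did not. For the 147 genes with several probe sets, the probe set with the highest mean signal was used, giving 13355 genes, of which 1557 have a symbol.

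All probe sets were fitted with limma 3.58.1 in R 4.3.3, with tissue and EST treatment as terms and an intensity trend, and p-values were adjusted by Benjamini-Hochberg over all of them. A gene was called at an adjusted p under 0.05 and a log2 difference of at least 1. The fits were also run on simulated data, with independent normal noise and no array minimum, EST effect or time effect. That run does not cover these features of the real arrays. The number of arrays, 2 and 4, limits the precision. The members and the gene lists were chosen with earlier results of these data known. The genes named were the 12 called genes of largest difference in each direction, up to 4 called members of largest difference in each list, the list members at the array minimum that define a cell type and the housekeeping genes. All other genes given with values, further list members included, were chosen after their values were seen. The list of cytosolic ribosome had no members here, since the gene table gives symbols and no descriptions. The lists of cuticle and wax and of phosphate and nitrate had none, since none of their genes was among those measured. Most other lists given by locus were covered in part. The genes measured were 3 of 17 for sugar starvation, 4 of 25 for leaf ageing and 1 of 20 for salicylic acid. Plastid genes were taken by chromosome and histone genes by symbol or synonym. Alternatives were another normalisation, centring, the subsets of arrays, other thresholds and leaving out each array.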

Additional observations from a re-analysis of the deposited data

Results flagged for a closer look

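Among 137 named genes, 10 had 1 seedling array far from the other 3. The test for this compares the gap to the nearest array with the whole range of the 4 seedling arrays, and chance flags about 1 in 20 groups. The distant EST 3 h values were 12.27 for PYK10 and 7.38 for SAG29. The distant mock 3 h values were 5.36 for CML30, 5.04 for GSTU26, 8.32 for AT4G34270 and 2.25 for EXPA7. The distant mock 4 h values were 10.01 for Cpn60beta3, 7.24 for EXPA15 and 2.15 for CLE26. The distant EST 4 h value was 2.16 for AT1G15010. The values of EXPA7, CLE26 and AT1G15010 lie at the array minimum, where the range of the other arrays is close to 0.

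By limma's interaction term, which 591 genes passed, the EST minus mock difference of leaves minus that of seedlings was -1.72 for petG (adjusted p = 0.00235), 1.43 for JAL22 (adjusted p = 0.0172), -0.92 for VPS60.1 (adjusted p = 0.0232), 1.26 for CML37 (adjusted p = 0.000264) and -0.94 for CLE26 (adjusted p = 0.000924). These are 5 of 137 named genes, a share close to that of the 591 among 13355 genes, so they do not stand out by number. In leaves each of these 5 values rests on 1 EST array and 1 mock array, so that the spread comes from the seedling arrays alone. The seedling signals of petG, CML37 and CLE26 sat at or near the array minimum, where their spread is close to 0 by construction, so the p-values of these 3 genes say nothing about the spread between leaves.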

How the results depend on the processing

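Leaf and seedling arrays came from plants of different age and at different times, so they could not be paired with each other. The labels match each EST array with the mock array of its own set, and the main fit held no term for these pairs. Against the 1567 higher and 1507 lower genes, the counts were 1024 and 961 with the mock arrays only and 834 and 905 with the EST arrays only, both chosen after seeing the data. With the 4 h seedlings only they were 548 and 586, and with the 3 h seedlings only 0 and 0 by limma's adjusted p, with 1474 and 1342 genes at an unadjusted p under 0.05. A minimum difference of 2 gave 586 and 556, and no minimum 2450 and 2297. Leaving out 1 array at a time gave 1267 to 1500 higher and 1273 to 1425 lower genes. Genes with tissues apart numbered 593 and 559 at a difference of at least 2, 3154 and 3131 with no minimum, and 3029 and 2972 over all probe sets.

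List medians moved as follows. Photosystems had 0.40 with the EST arrays only and 0.0735 to 0.40 with 1 array left out. Histones and cell division had -2.76 with the 3 h and -2.08 with the 4 h seedlings only. The shoot meristem gene had -0.0874 with median centring. Expansins and XTHs had -0.17 with median centring, -0.0076 with the mock arrays only, -0.048 with the 3 h and -0.0205 with the 4 h seedlings only, and -0.12 to -0.0076 with 1 array left out. Plastid genes had 0.30 to 0.92 with 1 array left out. Abscisic acid genes had -0.0733 with median centring. Housekeeping genes had -0.0934 with quantile normalisation, -0.0745 with median centring, 0.0555 with the mock arrays only, -0.0579 with the EST arrays only, and -0.0579 to 0.0555 with 1 array left out.

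Of 131 called named genes, 106 kept their call with each array left out in turn, 130 with quantile normalisation, 130 with median centring, 68 with the 4 h seedlings only and 0 with the 3 h seedlings only. No named gene turned its direction under the alternatives run. Signals near the array minimum limit 111 of the genes called lower, on both leaf arrays, and 114 of those called higher, on all seedling arrays. The cause of the moves was not tested; the subsets also hold fewer arrays.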

Other observations

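Beside the groups above, 4971 of the 13355 genes lay near the array minimum on all 6 arrays, where no difference could be measured. HAT2, a homeodomain factor of shade and auxin responses, had log2 signals of 8.03 and 7.20 in mock and EST leaves, against 4.57, 5.30, 5.03 and 5.03 in mock 3 h, EST 3 h, mock 4 h and EST 4 h seedlings, so the tissues did not overlap. The cell-wall invertase-family gene cwINV6 had 8.51 and 7.48 in leaves, against 4.35, 3.42, 3.97 and 4.41 in seedlings, a difference of 3.96 ± 0.40 (SE; limma adjusted p = 0.00416). Both were named after their values had been seen.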
